A study of Mus musculus with 6 samples.

Results

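The glucose transport, glycolysis and hypoxia genes described here are 37 mouse genes chosen by symbol for their roles, with earlier results of these data known. They are 3 transporters, 16 glycolytic enzymes, 2 regulators of glycolytic flux and 16 hypoxia-responsive genes. A named probe was on the array for 34 of the 37. Gpi1, Pgam1 and Eno1 had no probe named for them in the annotation used, so 3 steps of the pathway (glucose phosphate isomerase, phosphoglycerate mutase and the main enolase) were not analysed here. Another 5 (Aldoc, Bnip3, Ndrg1, Adm and Car9) had a probe that did not reach a detection p under 0.05 on 3 of the 6 arrays. The remaining 29 were tested, among 14686 named genes and unnamed probes in all. A gene that was detected only in the genotype where it was high also passed this filter.

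Glucose enters cells through facilitative transporters and is broken down in the cytosol by the enzymes of glycolysis to pyruvate, which is either reduced to lactate and exported or passed to mitochondria. When oxygen is low, the alpha subunits of the hypoxia-inducible factors (HIFs) escape hydroxylation by prolyl hydroxylases, pair with Arnt and bind a short core motif near their target genes, which include Slc2a1, most glycolytic enzymes, Vegfa and the prolyl hydroxylases themselves. At the stage studied here the eye surface ectoderm thickens into the lens placode next to the optic vesicle, a step that needs the transcription factor Pax6, and the lens that forms from it later relies largely on glycolysis.

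The study set 3 Pax6-/- mouse embryos, from which surface ectoderm at the site of the future lens was taken, against 3 wild type embryos, from which the lens placode was taken, both at embryonic day 9.5 (E9.5) and both on a mixed FVB and 129 background. The labels do not give the knockout allele, the deleted part of the gene, or the sex of the embryos. RNA of 1 embryo was amplified and hybridised to each array, tissue was cut by laser microdissection from frozen sections, and all 6 arrays were on 1 BeadChip. Values are log2 intensities after background correction and quantile normalization between arrays. A difference of 1 between knockout and wild type is a doubling, and levels of different probes are not comparable with each other.

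The arrays were alike in brightness, with a median raw signal of 41.7 for knockout embryo 1 and 47.3 to 49.8 for the other 5, and 38.8% to 41.6% of probes detected. Knockout embryo 1 stood apart on the first principal component, at -55.6 against -2.06 to 25.9 for the others. Each of the 3 Pax6 probes was detected in every embryo, and their differences of -0.74, -0.66 and -0.41 did not pass the test. Whether these probes lie in the deleted part is not known, so they do not check the genotype. Of the lens placode and surface ectoderm markers, 13 of 15 with a probe were detected in every embryo, Cdh1 and Epcam included, while Foxe3 and Pitx3 were not detected in any. Maf, a lens regulator, fell by 3.86 (adjusted p = 0.0048). Xist, transcribed from the inactive X chromosome, read 5.12, 4.95 and 5.09 in the knockout embryos, against 9.19, 9.43 and 9.39 in the wild type embryos, and both probes of the Y-linked Eif2s3y read higher in every knockout embryo than in any wild type embryo. Genotype and sex therefore cannot be told apart in any difference given here.

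Slc2a3 was the 1 gene of the 29 that passed the test, at an adjusted p under 0.05, as 23 did over everything tested (0.157%). Its level was about doubled in Pax6-/- surface ectoderm, while Slc2a1 was lower in every knockout embryo than in any wild type embryo without passing. The enzymes of glycolysis and the hypoxia-responsive genes were each split between higher and lower members. None of the 12 tested enzymes and none of the 12 tested hypoxia genes passed. With 0.157% of everything tested passing, that says little about either set. In all, 16 of the 29 were higher and 13 lower in the knockout, with a median change of 0.030, against a median of 0.0022 over everything tested. This split turned with single embryos: 18 were higher and 11 lower without knockout embryo 1, which stood apart, 12 higher and 17 lower without knockout embryo 2 or 3, and 14 higher and 15 lower without wild type embryo 3. None passed in any of these. The 3 knockout and 3 wild type values did not overlap for 4 of the 29 (Slc2a3 above; Slc2a1, Ddit4 and Pfkfb3 below), 12.1% of everything tested being without overlap. An unadjusted p under 0.05 was found for 4 of the 29 (Slc2a3, Slc2a1, Ddit4 and Eno2), against 7.44% of everything tested. Either count is 13.8% of the 29. All adjusted p-values are from limma with Benjamini-Hochberg adjustment over everything tested.

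**Figure D1:**
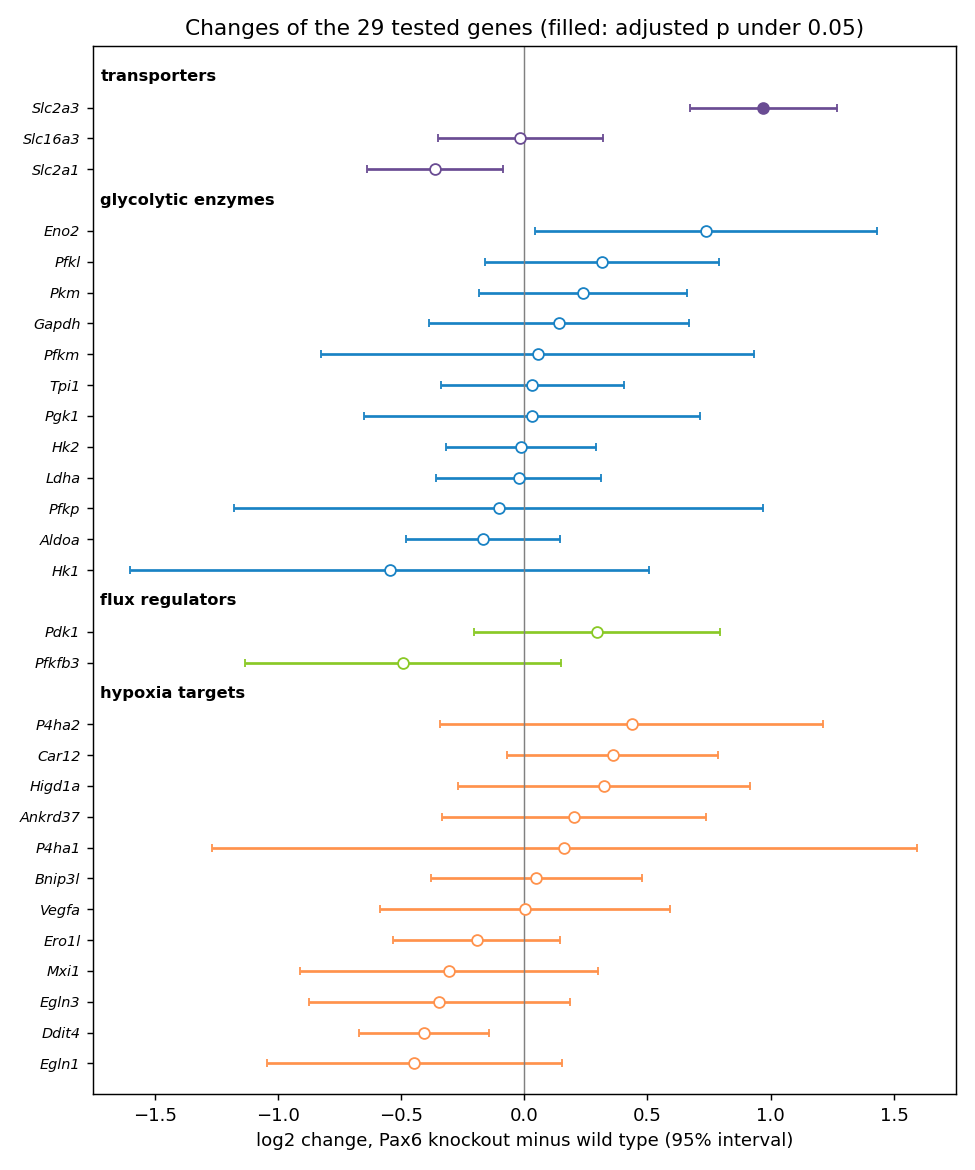
Change of each of the 29 tested genes between Pax6 knockout and wild type (x axis, log2 difference with its 95% interval), grouped by role down the page; filled points passed the test over all 14686. Slc2a3 alone is filled, at 0.97, and the enzymes and hypoxia targets lie on both sides of 0.

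Short promoter windows are shown for 4 of these genes, the 3 that were below wild type without overlap (Slc2a1, Ddit4 and Pfkfb3) and Ldha, the gene of lactate dehydrogenase A, as a textbook HIF target. Each is a window of 300 bases across the start site, most of it upstream, from RefSeq (build GRCm38.p6) and is written 5′ to 3′ on the strand of the gene. No window was matched for Slc2a3, Bnip3l and Ndrg1. Where a gene has several windows, the one with the most matches is shown. Capitals mark the HIF core motif, ACGTG or GCGTG, searched on both strands, so that it also appears as CACGT or CACGC; in CACGTG the matches of both strands overlap and count as 2.
Slc2a1 (chr4:119108495-119108794, plus strand): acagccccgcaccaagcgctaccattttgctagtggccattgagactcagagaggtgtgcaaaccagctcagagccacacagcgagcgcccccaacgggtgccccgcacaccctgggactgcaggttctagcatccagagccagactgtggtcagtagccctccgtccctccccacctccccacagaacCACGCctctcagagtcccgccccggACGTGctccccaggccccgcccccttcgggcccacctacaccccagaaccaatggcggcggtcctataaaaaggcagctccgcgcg
Ddit4 (chr10:59951721-59952020, minus strand): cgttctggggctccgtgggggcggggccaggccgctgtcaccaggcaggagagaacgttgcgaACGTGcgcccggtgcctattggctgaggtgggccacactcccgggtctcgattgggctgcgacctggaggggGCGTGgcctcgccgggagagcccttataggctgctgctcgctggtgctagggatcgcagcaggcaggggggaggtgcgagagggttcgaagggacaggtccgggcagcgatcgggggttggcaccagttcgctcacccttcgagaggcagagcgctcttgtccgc
Pfkfb3 (chr2:11502041-11502340, minus strand): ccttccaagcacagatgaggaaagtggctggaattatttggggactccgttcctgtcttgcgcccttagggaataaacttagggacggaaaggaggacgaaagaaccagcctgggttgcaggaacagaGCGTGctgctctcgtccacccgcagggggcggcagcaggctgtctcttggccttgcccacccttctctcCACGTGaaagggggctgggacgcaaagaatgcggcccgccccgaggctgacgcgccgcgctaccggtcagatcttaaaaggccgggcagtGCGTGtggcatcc
Ldha (chr7:46845554-46845853, plus strand): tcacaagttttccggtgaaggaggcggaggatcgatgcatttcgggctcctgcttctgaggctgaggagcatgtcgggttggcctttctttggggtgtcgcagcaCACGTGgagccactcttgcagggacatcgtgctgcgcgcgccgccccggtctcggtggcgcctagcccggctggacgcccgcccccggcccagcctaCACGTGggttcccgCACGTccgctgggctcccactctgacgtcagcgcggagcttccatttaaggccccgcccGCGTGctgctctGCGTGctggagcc
The windows of Slc2a1 and Ddit4 hold 2 matches each, that of Pfkfb3 holds 4 and that of Ldha 7. Across the genes described, 30 of the 34 with a window had a match in at least 1 window (88.2%), against 46.7% of all 27025 genes with a window. A gene could have several windows, and by window the shares were 78.0% of 50 and 43.8% of 32851. The list includes genes picked as hypoxia targets, and base composition was not matched, so the shares are a description only. A match describes letters in a window and not binding. Ldha, with 7 matches, differed by -0.023 between genotypes, and Slc2a1, Ddit4 and Pfkfb3 by -0.36, -0.41 and -0.49.

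Among the transporters, Slc2a3 encodes GLUT3, a high-affinity glucose transporter best known from neurons and placenta. Its level was 10.73, 10.87 and 10.77 in the knockout embryos, against 10.03, 9.71 and 9.73 in the wild type embryos. All 3 knockout values lay above all 3 wild type values, with 0.70 between the closest pair of embryos. The means were 10.79 ± 0.07 in knockout and 9.82 ± 0.18 in wild type (SD, n = 3 each), a change of 0.97 (SE 0.13, adjusted p = 0.041, 95% interval 0.67 to 1.27) in limma over all 14686, or 1.96-fold. By p it ranked 20 among everything tested, so it was among the last of the 23 to pass. It passed in 7 of 19 alternative settings, its change staying between 0.75 and 1.07, and it no longer passed when any 1 of the 6 embryos was left out (adjusted p = 0.114 to 0.207). Without knockout embryo 1 its change was 1.00.

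Slc2a1 encodes GLUT1, the widely expressed basal glucose transporter. Its level was 10.03, 9.98 and 10.24 in the knockout embryos, against 10.50, 10.47 and 10.37 in the wild type embryos. The lowest wild type embryo was above the highest knockout embryo, by less than the range within the knockout. The difference was -0.36 (SE 0.12, adjusted p = 0.531, 95% interval -0.64 to -0.08), and it kept its direction in all 19 alternatives, from -0.55 to -0.31, without passing in any. Slc16a3, the lactate exporter MCT4, had almost the same dim level in all 6 embryos, 5.29, 5.38 and 5.23 in the knockout embryos, against 5.29, 5.35 and 5.31 in the wild type embryos, a difference of -0.016 (SE 0.15, adjusted p = 0.993, 95% interval -0.35 to 0.32). Its second probe gave -0.052.

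Because both glucose transporters were measured on the same arrays, the difference Slc2a3 minus Slc2a1 within an array does not depend on the array's overall level. It was 0.70, 0.89 and 0.53 in the knockout embryos, against -0.47, -0.76 and -0.64 in the wild type embryos. The groups did not overlap, and the means, 0.71 ± 0.18 in knockout and -0.62 ± 0.15 in wild type (SD, n = 3 each), differed by 1.33 on the log2 scale, a 2.52-fold shift of the ratio. The exact two-sided permutation test gave p = 0.10, the smallest that 20 arrangements of 6 embryos allow. Slc2a3 was higher and Slc2a1 lower in every knockout embryo than in any wild type embryo. Their difference therefore had to separate the groups, and p had to be 0.10, so the test adds no evidence beyond the single genes. The shift of 1.33 is likewise the Slc2a3 change of 0.97 minus the Slc2a1 change of -0.36. Both genes were chosen with earlier results of these data known. The sign of each value carries no meaning by itself, since the probes differ in their own brightness. The shift was 1.24 to 1.42 when 1 embryo was left out, and 1.30 with scaling on the array medians.

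**Figure D2:**
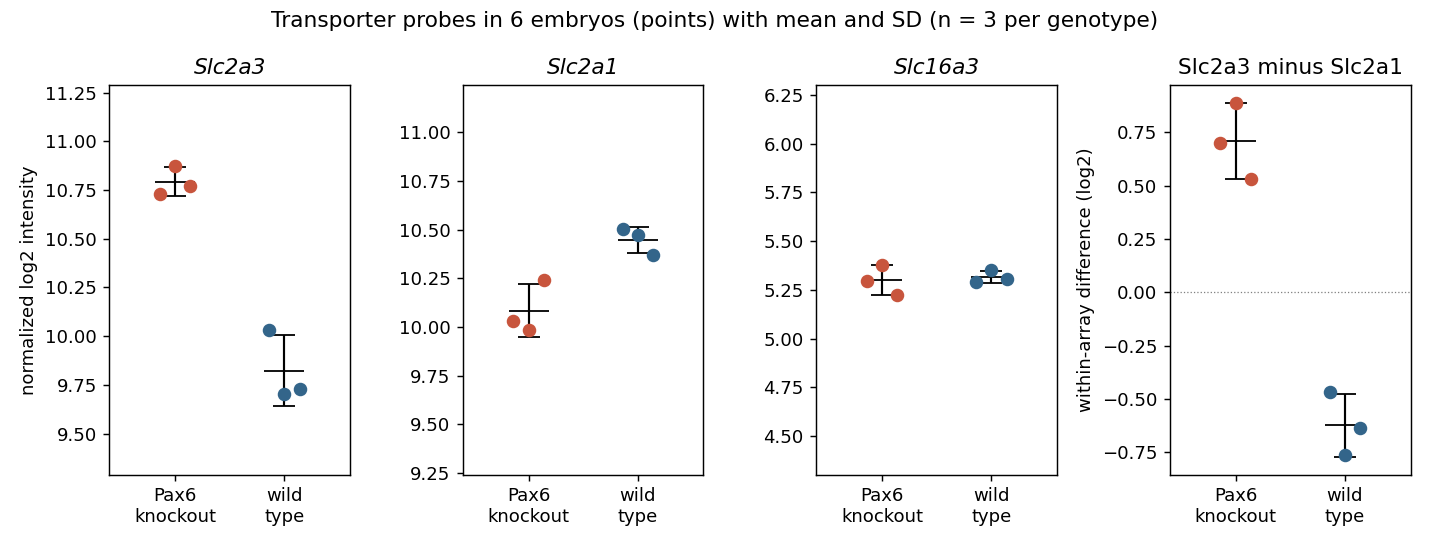
Normalized log2 intensity of the 3 transporter probes and, on the right, Slc2a3 minus Slc2a1 within each array, for knockout (left in each panel) and wild type embryos; points are embryos and bars the mean and SD. Slc2a3 lies at 10.73 to 10.87 in the 3 knockout embryos, against 9.71 to 10.03 in wild type. Slc2a1 is lower in every knockout embryo than in any wild type embryo, so Slc2a3 minus Slc2a1 necessarily separates the groups.

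Marker levels of other cell types in the same embryos are given beside the transporters. The summed linear level of 9 red cell markers was 1166 to 3647 in knockout and 666 to 1750 in wild type embryos, with Gata1 and Klf1 not detected. By embryo the sum was 1166, 2367 and 3647 in knockout, against 1750, 1153 and 666 in wild type. Of the 6 tested red cell markers 4 were higher in knockout, such as Hba-a1 at 2.02. The other 2 were lower, Tal1 at -0.70 and Alas2 at -0.56, and none passed. Optic vesicle and neuroepithelium markers summed to 898 to 1131 in knockout and 567 to 752 in wild type, without overlap. Their tested members, such as Rax and Six6, were higher in knockout in 6 of 6 cases and 0 of 6 passed. Hes5, Sox1 and Vax2 of this list were not detected in any embryo. Nes of this list was not tested, and was detected in 0 knockout embryos and 2 wild type embryos. It read 4.90, 5.0 and 4.94 in the knockout embryos, against 5.23, 4.94 and 5.29 in the wild type embryos. Endothelial markers summed to 649 to 871 in knockout and 543 to 740 in wild type, mesenchymal ones to 1534 to 1952 in knockout and 1385 to 1868 in wild type, and macrophage ones to 211 to 225 in knockout and 180 to 220 in wild type, with Ptprc and C1qa not detected. The surface ectoderm and lens placode list, which includes Maf, summed to 4738 to 5320 in knockout and 6573 to 7875 in wild type. Its members did not all go 1 way. Of 13 tested, 9 were lower in knockout and 4 higher (Krt8, Krt18, Dlx5 and Trp63), and Maf alone passed. The part of these cell types in the transporter levels was not tested, and in such bulk tissue fewer cells of a type and less RNA per cell cannot be told apart.

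Of the other sugar and monocarboxylate carriers, 7 of 15 were tested, 4 higher and 3 lower, and none passed. Slc2a5, the fructose transporter GLUT5, was detected in 1 knockout embryo and in 3 wild type embryos and did not overlap, at 4.80, 5.14 and 5.08 in the knockout embryos, against 5.31, 5.50 and 5.96 in the wild type embryos, a difference of -0.58 (SE 0.21, adjusted p = 0.556). Slc2a12 differed by 0.40, Slc5a2, a sodium-coupled glucose transporter, by 0.62, and Slc37a4, which carries glucose phosphate into the endoplasmic reticulum, by 0.45 (adjusted p = 0.772, 0.803 and 0.823). Slc16a1 and Bsg, the lactate carrier MCT1 and its chaperone basigin, differed by -0.019 and 0.17. Slc16a1 was near the detection limit, being detected in 1 knockout embryo and 2 wild type embryos, so its small difference says little. Slc2a12 was detected in 2 knockout embryos and 1 wild type embryo, and Slc37a4 in 3 knockout embryos and 1 wild type embryo.

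The glycolytic enzymes showed no common direction. Of 12 tested, 7 were higher and 5 lower in the knockout, with a median change of 0.031 and a range from -0.55 to 0.74. In none were the genotypes without overlap, against 12.1% of everything tested, a share at which 12 genes say little. The median was -0.14 when arrays were scaled on their medians, a setting that moved the median of everything tested by -0.15. The 95% intervals of the steadier enzymes reach about 0.3 to 0.5 to either side. They are not adjusted for the number of tests: Slc2a1 at -0.36 and Ddit4 at -0.41 had intervals that leave out 0 and did not pass, so the size needed to pass was larger than these intervals.

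Hexokinases trap glucose in the cell by phosphorylation. Hk2, the inducible isoform, was 10.83, 10.89 and 11.01 in the knockout embryos, against 11.09, 10.70 and 10.99 in the wild type embryos, a difference of -0.014 (SE 0.13, adjusted p = 0.993, 95% interval -0.32 to 0.29). All 3 knockout values lay inside the wild type range. Hk1, the constitutive isoform, ranged widely within both genotypes, 4.88, 6.18 and 5.77 in the knockout embryos, against 5.43, 6.17 and 6.88 in the wild type embryos, so that its difference of -0.55 (SE 0.46, adjusted p = 0.886) was within their spread.

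Phosphofructokinase, the main control point of the pathway, is built from subunits encoded by Pfkl, Pfkm and Pfkp. Pfkl was 9.69, 9.06 and 8.95 in the knockout embryos, against 8.99, 8.81 and 8.95 in the wild type embryos. Knockout embryo 1 was the high one, and the others lay at or near the wild type range, giving a difference of 0.32 (SE 0.21, adjusted p = 0.845). Pfkm and Pfkp differed by 0.055 and -0.10 (adjusted p = 0.99 and 0.987), with SDs of 0.66 and 0.65 in knockout and 0.24 and 0.88 in wild type. For both, knockout embryo 1 was the lowest of the 6.

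Aldolase A (Aldoa) and triosephosphate isomerase (Tpi1) split the sugar and interconvert its products. Aldoa was 9.77, 9.69 and 9.48 in the knockout embryos, against 9.69, 9.82 and 9.93 in the wild type embryos, a difference of -0.17 (SE 0.14, adjusted p = 0.882, 95% interval -0.48 to 0.15). Tpi1 was 9.25, 9.58 and 9.71 in the knockout embryos, against 9.66, 9.38 and 9.40 in the wild type embryos, a difference of 0.032 (SE 0.16, adjusted p = 0.987). In neither did the genotypes separate.

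Gapdh and Pgk1 carry out the oxidation step and the first step that yields ATP. Gapdh was 11.34, 11.38 and 11.03 in the knockout embryos, against 10.63, 11.10 and 11.60 in the wild type embryos. The lowest and the highest value were both in wild type, and the difference was 0.14 (SE 0.23, adjusted p = 0.96, 95% interval -0.39 to 0.67). The 2 other Gapdh probes gave 0.10 and 0.14. Pgk1, which is X-linked, was 6.29, 6.55 and 6.46 in the knockout embryos, against 6.59, 6.17 and 6.44 in the wild type embryos, a difference of 0.03 (SE 0.30, adjusted p = 0.994).

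Eno2, the neuron-specific enolase, had the largest difference among the enzymes. It was 5.44, 6.16 and 6.46 in the knockout embryos, against 5.19, 5.12 and 5.53 in the wild type embryos. Knockout embryos 2 and 3 were above every wild type embryo, but knockout embryo 1 was below wild type embryo 3, so the groups overlapped. The difference was 0.74 (SE 0.30, adjusted p = 0.638, 95% interval 0.04 to 1.43), with an unadjusted p of 0.040. It moved with the processing, from 0.45 with a background offset of 50 to 1.25 in the authors' processed table, and passed in neither. Knockout embryos 2 and 3 also had the higher sums of optic vesicle markers, 1131 and 1128, against 898 in knockout embryo 1. The red cell sums of knockout embryos 1, 2 and 3 were 1166, 2367 and 3647, in the same order as Eno2. In wild type embryo 3, the highest of its group in Eno2, both sums were the lowest of the 6 embryos, at 567 and 666. Whether either list bears on Eno2 was not tested.

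Pkm and Ldha close the pathway with pyruvate kinase and lactate dehydrogenase A. Pkm was 10.83, 10.93 and 10.84 in the knockout embryos, against 10.25, 10.61 and 11.02 in the wild type embryos, a difference of 0.24 (SE 0.18, adjusted p = 0.869), and its second probe gave 0.56 (adjusted p = 0.789, every probe tested). Ldha was 10.53, 10.56 and 10.54 in the knockout embryos, against 10.28, 10.63 and 10.79 in the wild type embryos, a difference of -0.023 (SE 0.15, adjusted p = 0.99, 95% interval -0.36 to 0.31). The 3 knockout values of Ldha lay within 0.03 of each other, between wild type embryos 1 and 2. Gapdh, Pkm and Ldha shared an order among the wild type embryos: embryo 1 was the lowest and embryo 3 the highest of all 6 arrays for each. Their SDs were 0.19, 0.059 and 0.016 in knockout and 0.49, 0.38 and 0.26 in wild type (n = 3 each). This was a description of 6 arrays, and the variances were not tested.

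**Figure D3:**
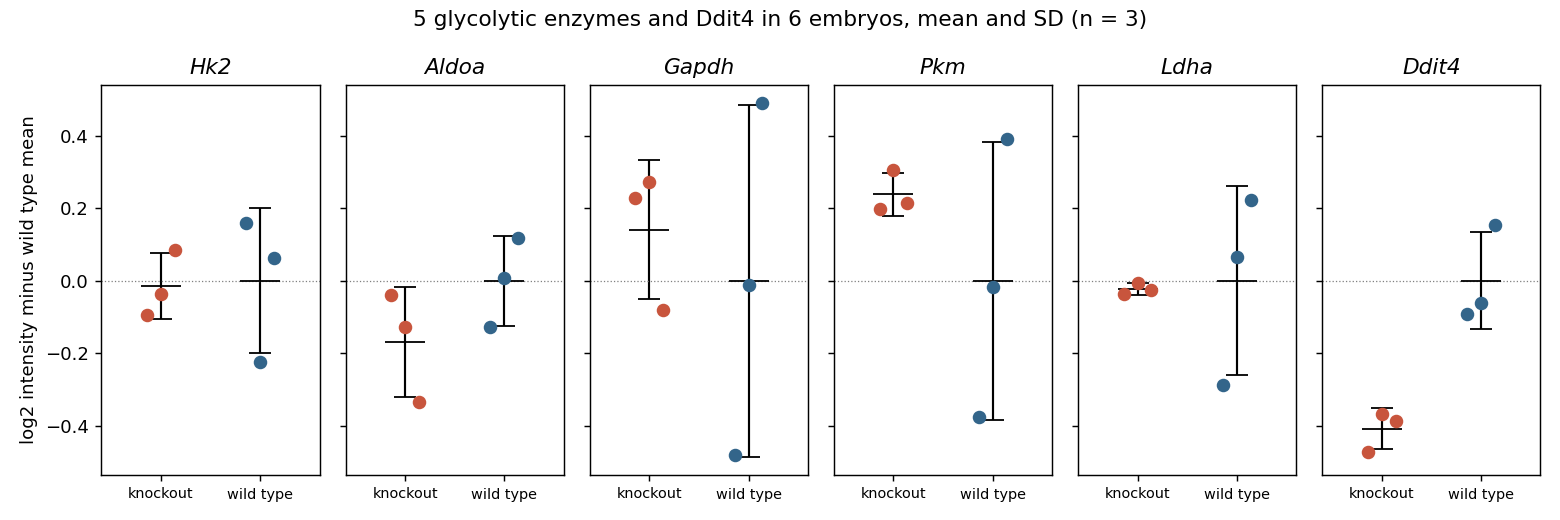
Log2 intensity of 5 glycolytic enzymes and of Ddit4 in each embryo, as the difference from the wild type mean of that gene, knockout on the left of each panel; bars are the mean and SD (n = 3). Gapdh, Pkm and Ldha spread more in wild type than in knockout, and Ddit4 alone separates the genotypes.

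Of the isozymes outside the list, 7 were tested, 5 higher and 2 lower. None passed or was without overlap, against 0.157% and 12.1% of everything tested. Pfkfb2, a kinase and phosphatase that sets the activator of phosphofructokinase, differed by -0.75, the ADP-dependent glucokinase Adpgk by 0.60, Ldhb, the other main lactate dehydrogenase subunit, by 0.31 and the muscle mutase Pgam2 by 0.41 (adjusted p = 0.766, 0.803, 0.818 and 0.883). In the pentose phosphate pathway, the branch that makes NADPH and ribose, 1 of 7 was higher, 6 were lower and none passed. Rpe, Tkt and Taldo1 of its non-oxidative arm differed by -0.44, -0.16 and -0.11, and H6pd of the endoplasmic reticulum by 0.50 (adjusted p = 0.851 to 0.929 for these 4). Of the genes of glucose release and glycogen, 5 of 8 were higher, 3 lower and none passed. G6pc3, a glucose phosphatase, was lower without overlap, 5.66, 5.95 and 5.07 in the knockout embryos, against 6.09, 7.24 and 6.10 in the wild type embryos, a difference of -0.92 (SE 0.41, adjusted p = 0.679). The branching enzyme Gbe1, glycogenin (Gyg) and the phosphorylase Pygl differed by 0.47, 0.31 and 0.30 (adjusted p = 0.882, 0.907 and 0.929).

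Pfkfb3 and Pdk1 set where the carbon goes: Pfkfb3 makes the sugar phosphate that activates phosphofructokinase, and Pdk1 limits the use of pyruvate in mitochondria by inactivating pyruvate dehydrogenase. Pfkfb3 was 5.61, 5.84 and 5.90 in the knockout embryos, against 6.05, 6.31 and 6.47 in the wild type embryos. Every knockout embryo was below every wild type embryo, by 0.15 at the closest, yet the difference of -0.49 (SE 0.28, adjusted p = 0.795) did not pass. Pdk1 was 7.77, 7.98 and 7.58 in the knockout embryos, against 7.51, 7.59 and 7.34 in the wild type embryos, a difference of 0.29 (SE 0.22, adjusted p = 0.862). Its second probe, designed on a separate cDNA record, was 7.19, 6.27 and 6.34 in the knockout embryos, against 5.61, 4.92 and 4.84 in the wild type embryos. That probe was detected in 3 knockout embryos and 1 wild type embryo, did not overlap between genotypes and was 1.48 higher in knockout (SE 0.37, adjusted p = 0.359 with every probe tested), so the probes agreed in sign and differed in size.

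The genes of pyruvate use in mitochondria were tested in 9 cases, 3 higher and 6 lower, and none passed. Pdk2, another kinase of pyruvate dehydrogenase, was the furthest from 0, at 5.70, 6.25 and 5.72 in the knockout embryos, against 6.99, 7.48 and 7.53 in the wild type embryos. The groups were more than 0.7 apart, and the difference was -1.45 (SE 0.33, adjusted p = 0.26), or an unadjusted p of 0.0020. Pdk1 and Pdk2, which share a substrate, thus had differences of opposite sign, and neither passed. The dehydrogenase subunits Pdhb and Pdha1, the second of them X-linked, differed by 0.44 and -0.18, and the activating phosphatase subunit Pdp2 by 0.31 (adjusted p = 0.92, 0.934 and 0.928).

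Of the 12 tested hypoxia targets, 7 were higher and 5 lower in knockout, with a median change of 0.026, or -0.19 under median scaling, and a range from -0.45 to 0.44. Ddit4 (REDD1), an inhibitor of mTOR signalling that stress and low oxygen induce, was 10.60, 10.70 and 10.68 in the knockout embryos, against 10.97, 11.01 and 11.22 in the wild type embryos. The knockout embryos lay close together and below all wild type embryos. The difference was -0.41 (SE 0.12, adjusted p = 0.411, 95% interval -0.67 to -0.14), with an unadjusted p of 0.0072. It was negative in all 19 alternatives, from -0.60 to -0.33. Dissection stress genes, with Jun, Dusp1, Zfp36 and Egr1 tested and Fos not detected in any embryo, summed to 569 to 781 in knockout and 731 to 910 in wild type, all 4 were lower and none passed, and their part in the Ddit4 level was not tested.

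Vegfa, the main growth factor for blood vessels, was 8.04, 8.06 and 8.93 in the knockout embryos, against 8.27, 8.45 and 8.30 in the wild type embryos. Knockout embryo 3 was the highest and the other knockout embryos the lowest of the 6, so that the difference was 0.002 (SE 0.26, adjusted p = 1, 95% interval -0.59 to 0.59). Ankrd37, an ankyrin repeat protein known as a HIF target, was 7.44, 7.65 and 7.53 in the knockout embryos, against 7.21, 7.59 and 7.21 in the wild type embryos, a difference of 0.20 (SE 0.23, adjusted p = 0.937). Neither gene separated the genotypes.

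Egln1 and Egln3 encode the prolyl hydroxylases PHD2 and PHD3, which mark HIF alpha subunits for destruction and are themselves HIF targets. Egln1 was 7.64, 8.11 and 7.80 in the knockout embryos, against 7.79, 8.60 and 8.50 in the wild type embryos, a difference of -0.45 (SE 0.26, adjusted p = 0.809), and its 2 other probes gave -0.28 and -0.11. Egln3 was 8.03, 8.72 and 8.48 in the knockout embryos, against 8.84, 9.01 and 8.43 in the wild type embryos, a difference of -0.34 (SE 0.23, adjusted p = 0.851), while its other probe gave 0.23. The Egln3 probes thus differed in sign, and all of these values overlapped between genotypes.

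Bnip3l, a receptor for the removal of mitochondria, was 8.08, 8.07 and 8.24 in the knockout embryos, against 8.30, 8.0 and 7.94 in the wild type embryos, a difference of 0.049 (SE 0.19, adjusted p = 0.987). Higd1a, a small mitochondrial protein, was 7.57, 7.46 and 7.74 in the knockout embryos, against 7.67, 7.07 and 7.07 in the wild type embryos, a difference of 0.32 (SE 0.26, adjusted p = 0.879). Mxi1, which opposes Myc, was 8.16, 7.49 and 7.53 in the knockout embryos, against 8.17, 8.27 and 7.68 in the wild type embryos, a difference of -0.31 (SE 0.26, adjusted p = 0.889). All of these lay within the spread of the embryos.

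Several targets act on secreted proteins or acid balance. P4ha1 and P4ha2, catalytic subunits of the collagen prolyl hydroxylase, differed by 0.16 and 0.44 (adjusted p = 0.987 and 0.87). P4ha1 was the least steady of the genes described, 5.36, 7.54 and 7.81 in the knockout embryos, against 7.0, 6.23 and 7.0 in the wild type embryos, with knockout embryo 1 more than 2 below the other knockout embryos. Without knockout embryo 1, its difference was 0.93 and still did not pass. P4ha2 was 7.25, 6.69 and 6.71 in the knockout embryos, against 6.33, 6.14 and 6.87 in the wild type embryos, and its second probe gave 0.43. Car12, a carbonic anhydrase at the cell surface, was near the detection limit, 5.65, 5.0 and 5.37 in the knockout embryos, against 4.93, 5.16 and 4.86 in the wild type embryos, and was detected in 2 knockout embryos and 1 wild type embryo, a difference of 0.36 (SE 0.19, adjusted p = 0.77). Ero1l (now Ero1a), an oxidase of the endoplasmic reticulum, was 8.64, 8.80 and 8.66 in the knockout embryos, against 8.78, 8.87 and 9.03 in the wild type embryos, a difference of -0.19 (SE 0.15, adjusted p = 0.869).

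The 5 genes left out of the test were near the floor in both genotypes. Adm (adrenomedullin) and Bnip3 were not well above background in any embryo. Aldoc and Ndrg1 had 2 probes each, every one detected in 0 knockout embryos and 1 wild type embryo. Car9, the carbonic anhydrase most often used as a hypoxia marker, had 1 probe detected in 1 knockout embryo and another detected in none.

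The HIF system itself was tested through 13 genes, 6 higher and 7 lower, and none passed. Hif1a, the oxygen-regulated subunit, was 7.14, 7.47 and 7.38 in the knockout embryos, against 6.60, 7.07 and 7.13 in the wild type embryos, a difference of 0.40 (SE 0.28, adjusted p = 0.851). Arnt, its partner, was 9.78, 10.08 and 9.83 in the knockout embryos, against 9.74, 9.65 and 9.72 in the wild type embryos, a difference of 0.19 (SE 0.13, adjusted p = 0.851). Vhl, which recognises hydroxylated HIF alpha for degradation, was 8.20, 7.58 and 7.92 in the knockout embryos, against 8.30, 8.50 and 8.22 in the wild type embryos, a difference of -0.44 (SE 0.21, adjusted p = 0.735). These 3 of the 13 did not overlap between genotypes, Hif1a and Arnt being higher and Vhl lower in knockout. That is 23.1% of the list, against 12.1% of everything tested, and the closest Hif1a values were 7.14 in knockout and 7.13 in wild type. Cul2, the scaffold of the Vhl ligase, differed by 0.41 (adjusted p = 0.882). Transcript levels do not report the amount of HIF protein, which oxygen controls after translation.

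Further hypoxia-responsive genes, 15 tested of 28, were higher in 9 and lower in 6, and none passed. Ppp1r3c, which targets protein phosphatase to glycogen, was 7.30, 8.45 and 8.05 in the knockout embryos, against 9.03, 8.98 and 8.51 in the wild type embryos, a difference of -0.90 (SE 0.30, adjusted p = 0.528). Stc2, the secreted stanniocalcin, went the other way, 6.92, 7.59 and 7.09 in the knockout embryos, against 5.90, 6.25 and 6.54 in the wild type embryos, a difference of 0.97 (SE 0.33, adjusted p = 0.54). Jmjd6, an oxygen-dependent hydroxylase, differed by -0.38 and Bhlhe40, a transcriptional repressor, by 0.56 (adjusted p = 0.626 and 0.67). The genotypes did not overlap for 4 of these 15, 2 above and 2 below, which is 26.7% against 12.1% of everything tested.

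Single embryos often stood at the extremes. Knockout embryo 1 was the highest or the lowest of the 6 for 14 of the 29 (48.3%), 11 times the lowest, and for 44.2% of everything tested. The median SD of the 29 was 0.19 in knockout and 0.22 in wild type, against 0.29 and 0.27 for everything tested. The map of deviations shows 1 row, Slc2a3, in which every knockout embryo is above every wild type embryo. Other rows, such as Pkm and Higd1a, are above the wild type mean in all 3 knockout embryos but overlap with wild type. In rows such as P4ha1, Hk1 and Pfkp, 1 or 2 embryos differ from the rest of their own group.

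**Figure D4:**
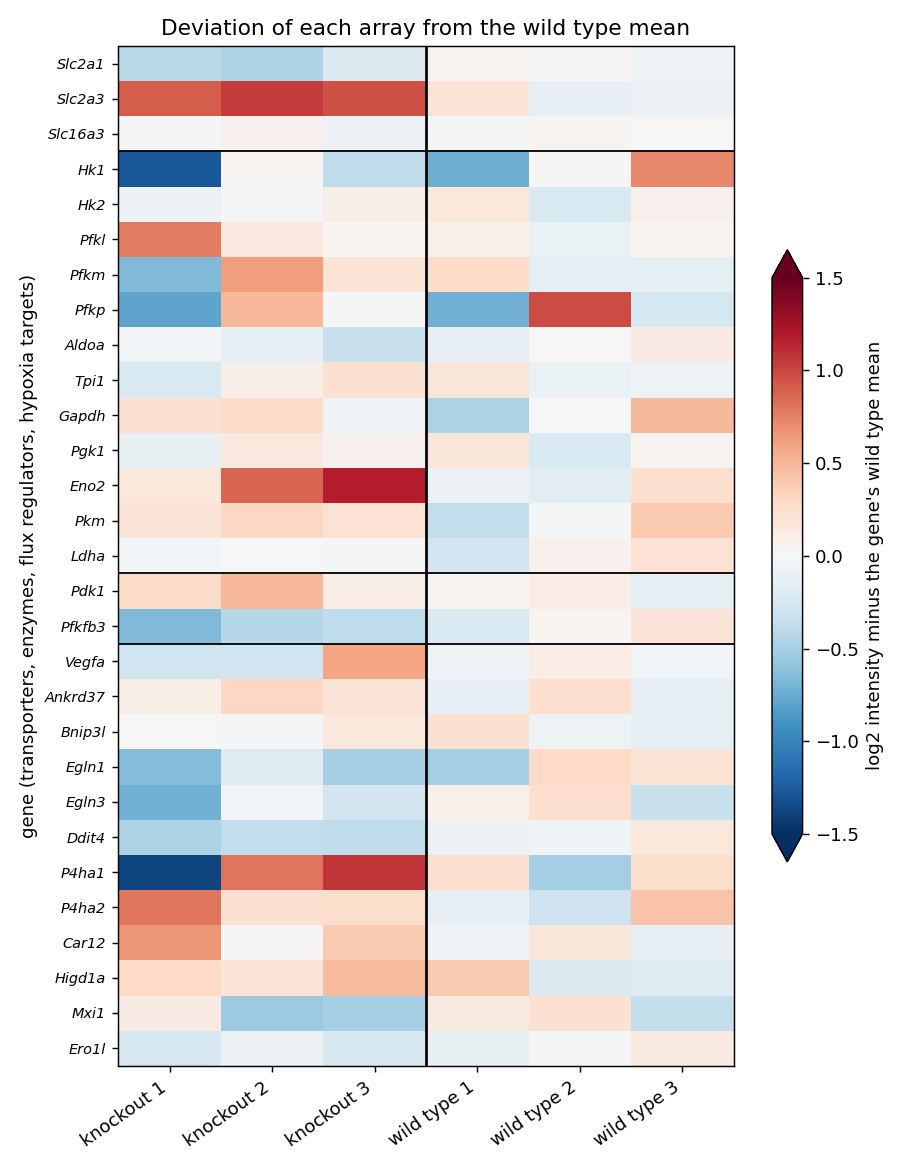
Deviation of every array from the wild type mean of the same gene (colour, log2, limited at 1.5 to either side) for the 29 tested genes, knockout embryos left and wild type embryos right, with lines between roles. Slc2a3 is high in all 3 knockout embryos, while Hk1, P4ha1 and Eno2 vary between embryos of the same genotype.

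The 4 genes without overlap were followed through the alternatives. Slc2a1, Ddit4 and Pfkfb3 stayed below 0 in all 19, and none of them passed in any. Slc2a3 stayed above 0 in all 19.

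**Figure D5:**
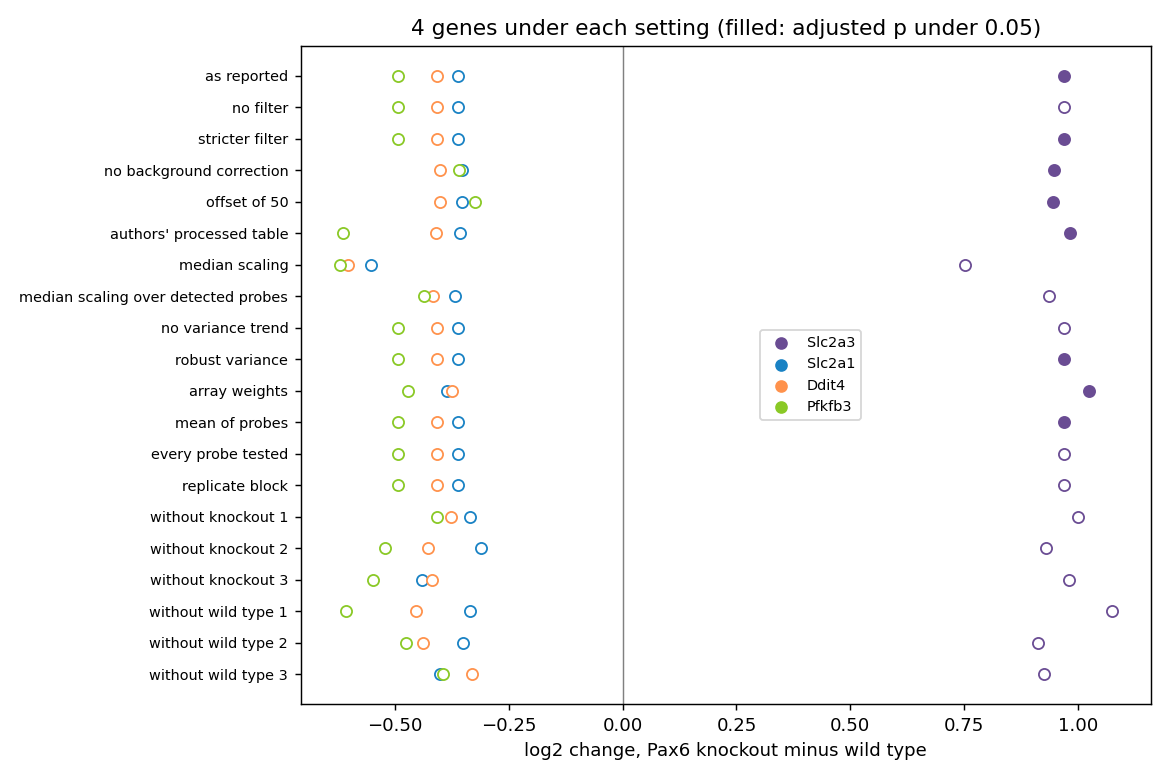
Change of Slc2a3, Slc2a1, Ddit4 and Pfkfb3 (x axis, log2, knockout minus wild type) under the reported setting and 19 alternatives (rows); filled points have an adjusted p under 0.05. Slc2a3 lies between 0.75 and 1.07 and is filled in the reported setting and 7 others, and the other 3 genes lie below 0 and are open throughout.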

How the data were processed

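RNA of prospective lens tissue from 3 Pax6-/- and 3 wild type embryos was measured on 1 Illumina array each. The genes and lists described were chosen with earlier results of these data known. The deposited table gives a linear intensity for 46632 probes; per the submitters' processing notes GenomeStudio was used, in a version not given in the sources used here. Per the file headers, it also holds a detection p-value, the count of beads averaged (median 36 or 37 per array) and the bead standard error as a signal. The intensity was not background-subtracted by the authors, since its lowest values were 21.8 to 25.8. The authors' second deposited table, a background-subtracted intensity with medians of 7.49 to 7.51 in the same rank order, served as an alternative, made in a way not stated there.

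Intensities were background-corrected with normexp (offset 16), quantile normalized and log2-transformed in limma 3.58.1 under R 4.3.3. A probe was kept (19381 in all) if 3 or more arrays gave it a detection p under 0.05. The brightest probe stood for a gene, which left 9618 genes and 5068 unnamed probes. The genotype effect was fitted with lmFit and eBayes, letting the variance follow intensity, Benjamini-Hochberg adjusted over all 14686 at 0.05. Values of a gene's other probes come from a fit over every kept probe. Embryos were the replicates, and their number limits the precision. Symbols came from the platform annotation: 1 symbol for 29976 probes, several for 10, and none used for 16646. RefSeq (GRCm38.p6) matched the identifiers of 29921 probes and gave the promoter windows, found for 34 of the 37 genes. The text names every gene of the list, with its kept probes where it had any. From each further list except the markers it names the genes that passed and the up to 4 with the smallest p. Of the markers only some are named, without that rule, and the others with a probe enter through the sums alone. Slc16a1, Bsg, Nes, the 4 surface ectoderm markers higher in knockout and markers not detected were named in addition, after their values were seen. The fits were tested on simulated data.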

Additional observations from a re-analysis of the deposited data

How the results depend on the processing

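The direction of Slc2a3 held in all 19 alternatives and its call in 7 of them. Its change was 0.97 without passing when no probe filter was used (adjusted p = 0.0995), without a variance trend (0.168), with every probe tested (0.0536) and with the replicate block (0.262). It was 0.75 under median scaling and 0.94 under median scaling over detected probes, an alternative chosen after seeing the data, and 0.911 to 1.07 when 1 embryo was left out. In each of these settings 0 of the genes described passed in limma, against 1 as reported. The count over everything tested, 23, was 6 with no filter, 69 with a stricter filter, 1 with the replicate block and 1 to 6 without 1 embryo. Same-numbered embryos did not deviate together (correlations -0.047, -0.024 and -0.036), so the numbers were not taken to pair them. Median scaling moved the median of everything by -0.15. Under it the role medians were -0.14 for enzymes, -0.26 for flux regulators and -0.19 for hypoxia targets, or 0.0042, -0.12 and -0.042 relative to that shift, and 10 of the 29 were higher and 19 lower. The transporter median was 0.30 under the stricter filter, the flux regulator median 0.20 with probes averaged, and the hypoxia median -0.19 to 0.11 without 1 embryo. Bnip3l turned to -0.17 under median scaling and Slc16a3 to 0.12 under median scaling over detected probes. In all, 39 of 546 values of single genes changed sign, in 11 genes, none with a reported change above 0.16 in size. Dim probes such as Car12, Hk1 and Pfkp limit what these arrays can show.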
